A study of Mus musculus with 8 samples.

Results

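Transcripts of 8 chemokine receptor genes, Ccr1, Ccr2, Ccr6, Ccr9, Cxcr3, Cxcr4, Cxcr5 and Cx3cr1, were followed in dendritic cells (DC) sorted from mouse spleen. They were taken by symbol from a table of read counts with 27179 gene IDs, and all 8 were present and passed the filter on low counts. The best known receptor of DC migration, Ccr7, was not among them. RNA sequencing was done on plasmacytoid DC (pDC), a source of type I interferon, and on conventional DC (cDC), which present antigen to T cells. The cells came from leukemia-bearing mice of the C57BL/6 strain that had received panobinostat, an inhibitor of histone deacetylases, or vehicle, taken from the column names to be dextrose in water, for 2 days. The 4 groups were panobinostat pDC, vehicle pDC, panobinostat cDC and vehicle cDC, each with 2 libraries, called biological replicates in the labels. Each library pooled 3 to 6 mice, so the spread between libraries is that of pools and not of single animals. All 4 groups carried the leukemia, so no group stands for healthy spleen. What drives the leukemia, and the age and sex of the mice, were not stated in the labels used here.

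Chemokine receptors are G protein-coupled receptors that guide cells along gradients of small secreted proteins, the chemokines. On binding a ligand they signal through inhibitory G proteins to Rac and the actin skeleton, and are then silenced by receptor kinases and arrestins. In mice, Ccr9 marks mature pDC and directs them to the gut and thymus, while Ccr2 draws monocytes and DC precursors out of the bone marrow and Cxcr3 leads cells into inflamed tissue.

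The libraries held 13124861 to 20657429 counts. Panobinostat pDC replicate 2 had the lowest total and 10745 genes with at least 1 count, while the other 7 libraries had 14927 to 19950. The summed level of 10 pDC markers was 15332 to 20669 CPM in panobinostat pDC, 12214 to 14149 CPM in vehicle pDC, 410.4 to 434 CPM in panobinostat cDC and 385 to 403 CPM in vehicle cDC, so the libraries matched their labels. CPM, the depth-scaled count of a gene, used library sizes scaled by TMM. The 16 cDC markers summed to 39481 to 70003 CPM in panobinostat pDC and 82209 to 88991 CPM in panobinostat cDC, and to 29231 to 43507 CPM in vehicle pDC and 58684 to 68503 CPM in vehicle cDC. In pDC, 8 of them were lower and 1 higher under panobinostat, and 6 lower and 1 higher under vehicle. Of all genes, 10.2% were lower and 7.76% higher under panobinostat, and 4.71% and 5.01% under vehicle. Zbtb46, a transcription factor of cDC, was at 2.37 to 19.6 CPM in the pDC libraries and 137 to 199.9 CPM in the cDC libraries, while the higher one, the lectin gene Cd209a, was at 754 to 1883 CPM in the pDC libraries and 81.3 to 142 CPM in the cDC libraries. Log2 fold changes are given ± standard error (SE), group means ± standard deviation (SD) with n = 2, and a gene was called at an adjusted p below 0.05 in edgeR's quasi-likelihood test over all 14238 genes tested. In these bulk samples, fewer cells that express a gene and less RNA per cell cannot be told apart.

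**Figure D1:**
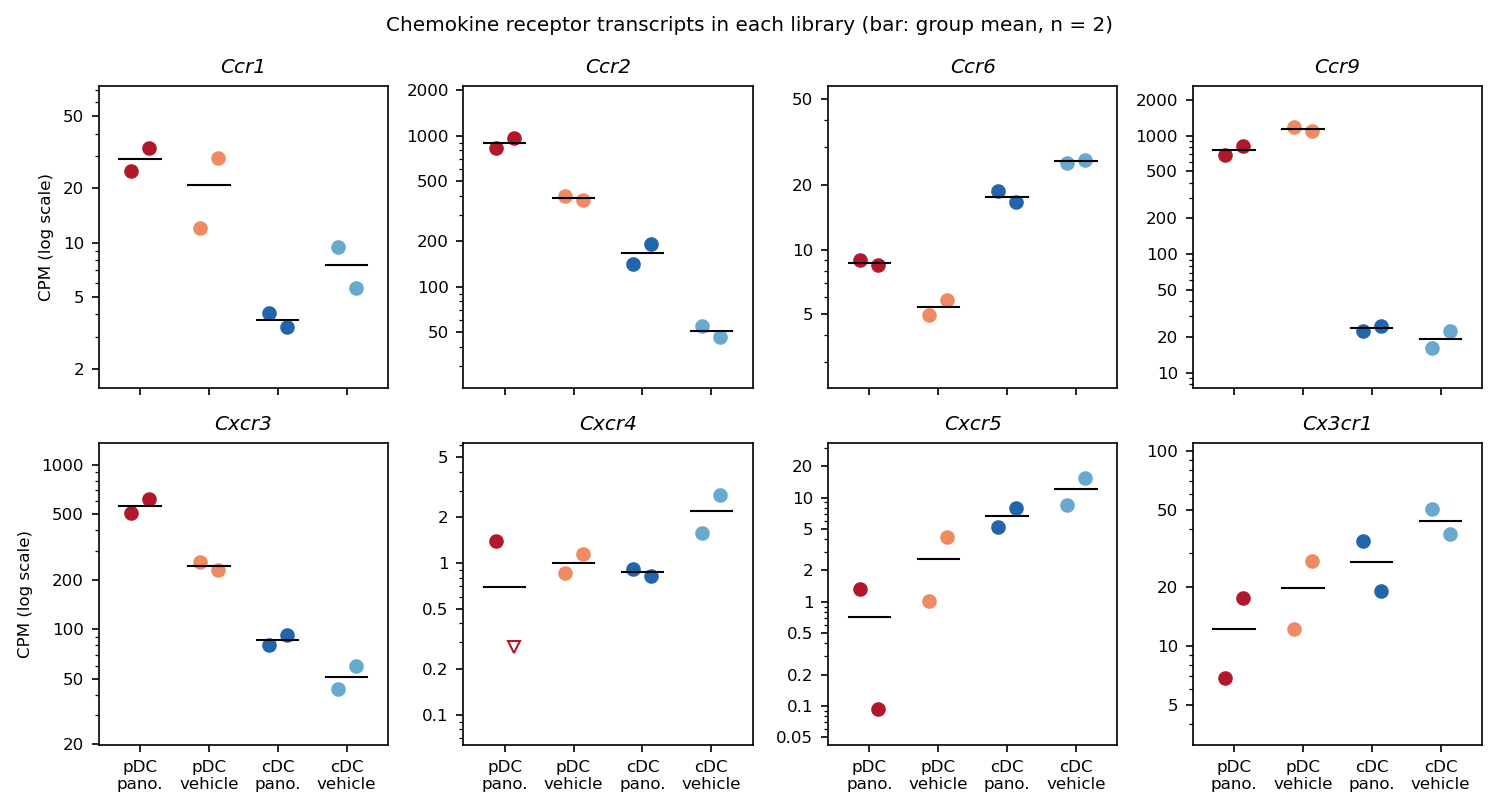
CPM (log scale) of each receptor in each library, with panobinostat left of vehicle and a bar at the group mean (n = 2). Ccr9, Ccr2, Cxcr3 and Ccr1 lie above every cDC library in all 4 pDC libraries, Ccr1 by a narrow gap (12.1 against 9.41 CPM, both with vehicle). The open triangle marks the library with 0 Cxcr4 counts, drawn at the CPM of 3 counts, 0.279.

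The cell type comparison asked which receptors differ between pDC and cDC. Of the 8 receptors, Ccr2, Ccr9 and Cxcr3 were higher in pDC than in cDC under both treatments, Ccr1 was higher under panobinostat, and Ccr6 was lower in pDC under vehicle. Thus 4 of 8 were called under panobinostat, all higher, where 18.0% of all genes tested were called (7.76% higher, 10.2% lower). Under vehicle 4 of 8 were called, 3 higher and 1 lower, where 9.73% of all genes were called (5.01% higher, 4.71% lower). The median log2 fold change of the 8 receptors was 1.09 under panobinostat and 0.16 under vehicle, against -0.18 and 0.02 over all genes tested. At an unadjusted p below 0.05 stood 6 receptors under panobinostat, with 34.8% of all genes, and 5 under vehicle, with 24.5%. Without panobinostat pDC replicate 1, 7 receptors and 68.9% of all genes were called under panobinostat, and a fit of the 4 panobinostat libraries alone called 2 receptors and 162 of 14231 genes. The libraries of the cell types did not overlap for 4 higher and 3 lower receptors under panobinostat, which was so for 24.7% and 38.0% of all genes, and for 4 higher and 4 lower under vehicle, with 35.1% and 35.5% of all genes.

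**Figure D2:**
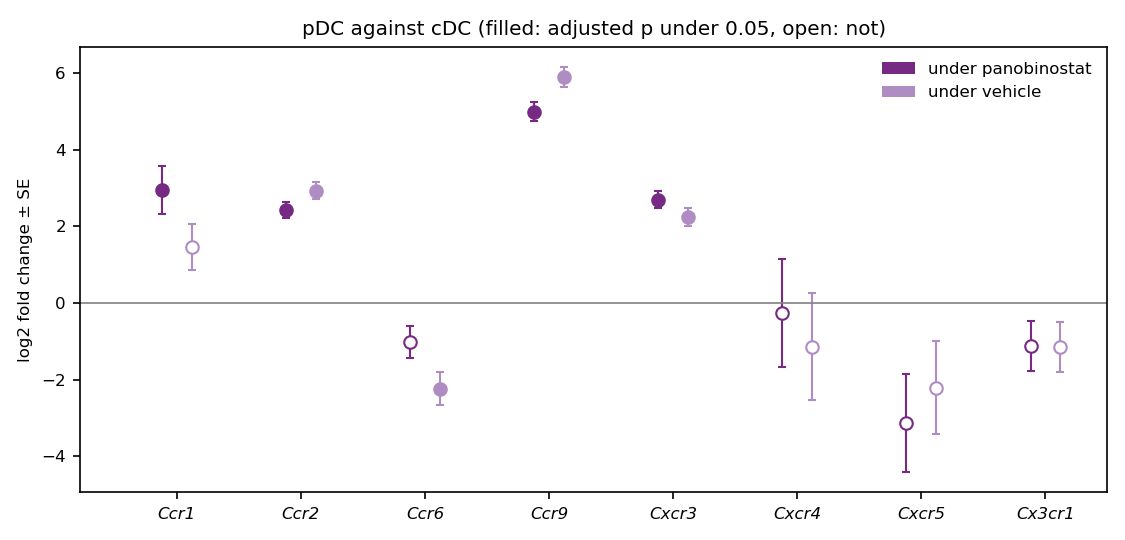
Log2 fold change of pDC against cDC ± SE for each receptor, under panobinostat (dark) and under vehicle (light), with filled points for an adjusted p below 0.05. Ccr9 has the largest change of the 8 under both treatments, 5.0 and 5.90, while Cxcr4, Cxcr5 and Cx3cr1 have open points below 0.

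Ccr9 (Entrez Gene 12769), the receptor of Ccl25, lies at chr9:123767211-123783457 (GRCm38.p6, the mm10 build of the files). It was at 686 and 821 CPM in panobinostat pDC and at 1194 and 1098 CPM in vehicle pDC. In cDC it was at 22.5 and 24.7 CPM with panobinostat and at 16.2 and 22.3 CPM with vehicle. Every pDC library was far above every cDC library. Ccr9 was higher in pDC by 5.0 ± 0.25 log2 units under panobinostat (31.9-fold, adjusted p = 0.000647) and by 5.90 ± 0.26 under vehicle (59.6-fold, adjusted p = 0.000659). The order of the groups was vehicle pDC, panobinostat pDC, panobinostat cDC and vehicle cDC, and the lowest pair, panobinostat cDC and vehicle cDC, differed by about the spread of the vehicle libraries (23.6 ± 1.52 and 19.2 ± 4.30 CPM, SD, n = 2 each).

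Ccr2 (Entrez Gene 12772, chr9:124101918-124109140) and Cxcr3 (Entrez Gene 12766, chrX:101731535-101734147) followed a different order, with panobinostat above vehicle in each cell type. Ccr2, the receptor of Ccl2, was at 832 and 971 CPM in panobinostat pDC, at 399 and 377 CPM in vehicle pDC, at 142 and 191 CPM in panobinostat cDC and at 55.0 and 46.8 CPM in vehicle cDC. Cxcr3, the receptor of the interferon-induced ligands Cxcl9 and Cxcl10, was at 509 and 620.0 CPM in panobinostat pDC, at 258 and 229 CPM in vehicle pDC, at 80.3 and 92.8 CPM in panobinostat cDC and at 43.5 and 59.5 CPM in vehicle cDC. None of the 4 groups overlapped for either gene. Ccr2 was higher in pDC than in cDC by 2.43 ± 0.22 log2 units under panobinostat (adjusted p = 0.00208) and by 2.93 ± 0.22 under vehicle (adjusted p = 0.00169). Cxcr3 was higher in pDC by 2.70 ± 0.23 log2 units under panobinostat (adjusted p = 0.00176) and by 2.24 ± 0.23 under vehicle (adjusted p = 0.00354). In a fit of the 4 panobinostat libraries alone, the call of Ccr2 was lost (adjusted p = 0.0520).

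Ccr1 (Entrez Gene 12768, chr9:123962126-123968692), a receptor of Ccl3 and Ccl5, was at 24.8 and 33.5 CPM in panobinostat pDC and at 4.05 and 3.42 CPM in panobinostat cDC. It was at 12.1 and 29.5 CPM in vehicle pDC and at 9.41 and 5.63 CPM in vehicle cDC. The pDC libraries were the higher under each treatment, with a narrow gap under vehicle and overlapping levels in panobinostat and vehicle pDC. Ccr1 was higher in pDC by 2.96 ± 0.63 log2 units under panobinostat (adjusted p = 0.0277) and by 1.47 ± 0.60 under vehicle (adjusted p = 0.199). The call under panobinostat was lost in a fit of the 4 panobinostat libraries alone (adjusted p = 0.150) and without panobinostat cDC replicate 1 (adjusted p = 0.167) or 2 (adjusted p = 0.175) or vehicle cDC replicate 1 (adjusted p = 0.0698) or 2 (adjusted p = 0.0683).

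Ccr6 (Entrez Gene 12458, chr17:8236041-8258519), the receptor of Ccl20 and known from B cells and Th17 cells, was at 8.97 and 8.45 CPM in panobinostat pDC and at 18.7 and 16.6 CPM in panobinostat cDC. It was at 4.99 and 5.84 CPM in vehicle pDC and at 25.2 and 26.2 CPM in vehicle cDC. The 4 groups did not overlap, and the order was the reverse of that of Ccr9. Ccr6 was lower in pDC by 2.24 ± 0.43 log2 units under vehicle (log2 fold change -2.24, adjusted p = 0.0272), while under panobinostat the log2 fold change was -1.01 ± 0.42 (adjusted p = 0.141). DESeq2 called Ccr6 under panobinostat too (adjusted p = 0.000497), with 31.6% of all genes, and limma-voom did not (adjusted p = 0.152). The call under vehicle was lost with no filter on low counts and without any of 6 libraries, those of vehicle pDC (adjusted p = 0.168 and 0.125), panobinostat cDC (0.113 and 0.112) and vehicle cDC (0.188 and 0.195). B cell markers, of which Ighm made up most in each pDC library, summed to 3378 to 3691 CPM in panobinostat pDC, 3086 to 3123 CPM in vehicle pDC, 708 to 1029 CPM in panobinostat cDC and 1175 to 2260.5 CPM in vehicle cDC, with Cd79a at 6.80 and 37.7 CPM in panobinostat cDC and 25.9 and 101 CPM in vehicle cDC. Ms4a1 was at 62.5 and 146 CPM in panobinostat cDC and 25.2 and 136 CPM in vehicle cDC, so single B cell markers did not share a direction. Their part in the Ccr6 values was not tested.

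The promoters of genes that differ between the cell types are shown next, for 3 of the 4 genes higher in pDC and for Ccr6. Ccr2 is not shown because only 17 bases of its window lie before the first annotated transcript start, and its full window held 1 match. RefSeq windows (GRCm38.p6) held 7 of the 8 genes in 8 windows (Ccr6 has 2), and Cxcr5 was not matched. The bases printed lie upstream of the first annotated transcript start, or of a later start for the second Ccr6 window, 5′ to 3′, with matches to CANNTG in capitals. This E-box is the kind of site bound by E proteins such as Tcf4, a pDC factor. The positions are chr9:123766961-123767168 (+) for Ccr9, chr9:123968693-123968942 (-) for Ccr1, chrX:101734270-101734397 (-) for Cxcr3 and chr17:8235793-8236042 (+) and chr17:8242276-8242525 (+) for Ccr6.
Ccr9: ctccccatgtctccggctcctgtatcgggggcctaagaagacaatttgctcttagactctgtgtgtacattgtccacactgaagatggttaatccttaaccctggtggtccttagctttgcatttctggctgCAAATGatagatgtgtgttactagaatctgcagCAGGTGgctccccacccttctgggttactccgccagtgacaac
Ccr1: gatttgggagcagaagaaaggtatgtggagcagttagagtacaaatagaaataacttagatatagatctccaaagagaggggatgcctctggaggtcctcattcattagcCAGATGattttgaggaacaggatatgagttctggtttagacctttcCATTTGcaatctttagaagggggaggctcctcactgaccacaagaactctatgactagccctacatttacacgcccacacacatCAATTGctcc
Cxcr3: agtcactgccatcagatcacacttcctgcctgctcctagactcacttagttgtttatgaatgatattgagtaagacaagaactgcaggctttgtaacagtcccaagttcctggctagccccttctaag
Ccr6: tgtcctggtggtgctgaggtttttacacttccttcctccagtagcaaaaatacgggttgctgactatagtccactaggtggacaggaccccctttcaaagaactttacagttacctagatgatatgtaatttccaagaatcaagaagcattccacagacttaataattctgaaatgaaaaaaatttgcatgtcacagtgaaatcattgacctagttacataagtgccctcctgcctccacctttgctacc
Ccr6 second window: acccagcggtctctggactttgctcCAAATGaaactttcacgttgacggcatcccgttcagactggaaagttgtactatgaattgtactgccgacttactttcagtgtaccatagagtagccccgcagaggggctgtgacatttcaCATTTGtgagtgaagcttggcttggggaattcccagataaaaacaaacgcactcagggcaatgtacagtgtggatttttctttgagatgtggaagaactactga
Over the full 250 upstream bases and both strands, CANNTG was in 6 of the 8 windows and in 66.2% of 32851 windows of all genes. GAGGAA, a core of ETS factors such as PU.1 and SpiB, was in 3 of the 8 windows and in 23.3% of all windows, and TGTGGT, a core of Runx factors, was in 3 of the 8 and in 14.0% of all windows. The core of the interferon-stimulated response element was in 0 of the 8 and in 2.98% of all windows. These are letter matches and not evidence of binding.

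The remaining receptors, Cx3cr1, Cxcr5 and Cxcr4, had negative log2 fold changes of pDC against cDC that edgeR called under neither treatment in the fit of all libraries. DESeq2 called Cxcr5 under panobinostat (adjusted p = 0.0226), with 31.6% of all genes, and not under vehicle (adjusted p = 0.138). Limma-voom did not call Cxcr5 under panobinostat (adjusted p = 0.0566). For Cxcr4 the libraries overlapped under panobinostat, at 1.39 and 0 CPM in pDC and 0.916 and 0.815 CPM in cDC. Cx3cr1 (Entrez Gene 13051, chr9:120048683-120068296), the fractalkine receptor, was at 6.84 and 17.7 CPM in panobinostat pDC, at 12.3 and 27.2 CPM in vehicle pDC, at 34.7 and 19.1 CPM in panobinostat cDC and at 50.2 and 37.4 CPM in vehicle cDC. Neighbouring groups overlapped, apart from panobinostat cDC and vehicle cDC, which lay close together. The log2 fold changes of pDC against cDC were -1.13 ± 0.65 under panobinostat (adjusted p = 0.267) and -1.15 ± 0.65 under vehicle (adjusted p = 0.358). Cxcr5 (Entrez Gene 12145, chr9:44511787-44526444), the receptor of the follicle chemokine Cxcl13, was at 1.34 and 0.0929 CPM in panobinostat pDC, at 1.01 and 4.16 CPM in vehicle pDC, at 5.26 and 7.93 CPM in panobinostat cDC and at 8.57 and 15.3 CPM in vehicle cDC. The low value in panobinostat pDC rests on 1 count, and the groups of each cell type were close or overlapped (log2 fold change of pDC against cDC -3.14 ± 1.28 under panobinostat, adjusted p = 0.140, and -2.21 ± 1.22 under vehicle, adjusted p = 0.349).

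Cxcr4 (Entrez Gene 12767, chr1:128588199-128592299), the receptor of Cxcl12 that retains cells in the bone marrow, was the least abundant. Its counts were 28 and 0 in panobinostat pDC, 17 and 21 in vehicle pDC, 19 and 15 in panobinostat cDC and 34 and 61 in vehicle cDC. Its count of 0, in panobinostat pDC replicate 2, allows up to 0.279 CPM, and floors cover counting error only. The vehicle cDC libraries were the highest, at 1.58 and 2.82 CPM, and its log2 fold changes of pDC against cDC were -0.26 ± 1.40 under panobinostat (adjusted p = 0.914) and -1.14 ± 1.39 under vehicle (adjusted p = 0.745). Without panobinostat pDC replicate 2 the first of these was 0.63. Scaled to kb of the longest coding transcript, Cxcr3 had the highest level of the 8 in panobinostat pDC and in each cDC group, at 326 CPM per kb in panobinostat pDC and 29.7 in vehicle cDC, and Ccr9 was highest in vehicle pDC, at 221 CPM per kb.

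The second comparison asked what panobinostat changed in pDC. None of the 8 receptors passed the test in pDC (0 of 8), and 0.0913% of all genes did (0.0140% higher, 0.0773% lower). Unadjusted, 3 of 8 (Ccr2, Cxcr3 and Ccr9) had p below 0.05, against 14.9% of all genes, and DESeq2 called 2, with 6.42% of all genes, and limma-voom 0. Ccr2 and Cxcr3 had the largest positive changes of the 8. Ccr2 averaged 902 ± 98.5 CPM in panobinostat pDC and 388 ± 15.3 CPM in vehicle pDC (SD, n = 2 each). Cxcr3 stood at 564 ± 78.6 CPM in panobinostat pDC and 244 ± 20.5 CPM in vehicle pDC, and Ccr9 at 753 ± 95.2 CPM in panobinostat pDC and 1146 ± 67.8 CPM in vehicle pDC (SD, n = 2 each). The log2 fold changes were 1.22 ± 0.21 for Ccr2 (edgeR adjusted p = 0.128), 1.21 ± 0.22 for Cxcr3 (adjusted p = 0.134) and -0.61 ± 0.21 for Ccr9 (adjusted p = 0.283). In DESeq2, Ccr2 (adjusted p = 0.000201) and Cxcr3 (adjusted p = 0.000710) were called, and without panobinostat pDC replicate 1, which leaves replicate 2 alone and lets it vary like the other groups, Ccr2 (adjusted p = 0.00432), Cxcr3 (0.00435), Cxcr4 (0.00867) and Cxcr5 (0.0361) were called, with 58.0% of all genes.

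Of the markers of other cells, 0 were called between these groups, against 0.0913% of all genes, and their part in the receptor values was not tested. Monocyte and macrophage markers summed to 2917 to 6350.0 CPM in panobinostat pDC and 1779 to 3622 CPM in vehicle pDC, an overlap, mostly from Ly6c2, and Csf1r was at 7.54 and 0 CPM in panobinostat pDC and at 10.8 and 8.70 CPM in vehicle pDC. Ms4a6c was higher, at 159.7 and 391 CPM in panobinostat pDC and 65.7 and 148 CPM in vehicle pDC, so single monocyte markers did not share a direction. Chil3, Vcan and F13a1 had 0 counts in both panobinostat pDC libraries, but at most 8 counts in any vehicle pDC library. NK cell markers summed to 598 to 1338 CPM in panobinostat pDC and 181 to 278 CPM in vehicle pDC, mostly from Klrd1 and Klrk1, while Ncr1 was at 1.39 and 0 CPM in panobinostat pDC and 0 and 0.108 CPM in vehicle pDC. T cell markers, led by Cd4, summed to 311 to 336 CPM in panobinostat pDC and 723 to 820.0 CPM in vehicle pDC. The list went both ways, with Cd3e at 0 counts in both panobinostat pDC libraries and at 0.151 and 1.30 CPM in vehicle pDC, and Lck at 10.3 and 46.3 CPM in panobinostat pDC and 3.63 and 3.73 CPM in vehicle pDC.

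**Figure D3:**
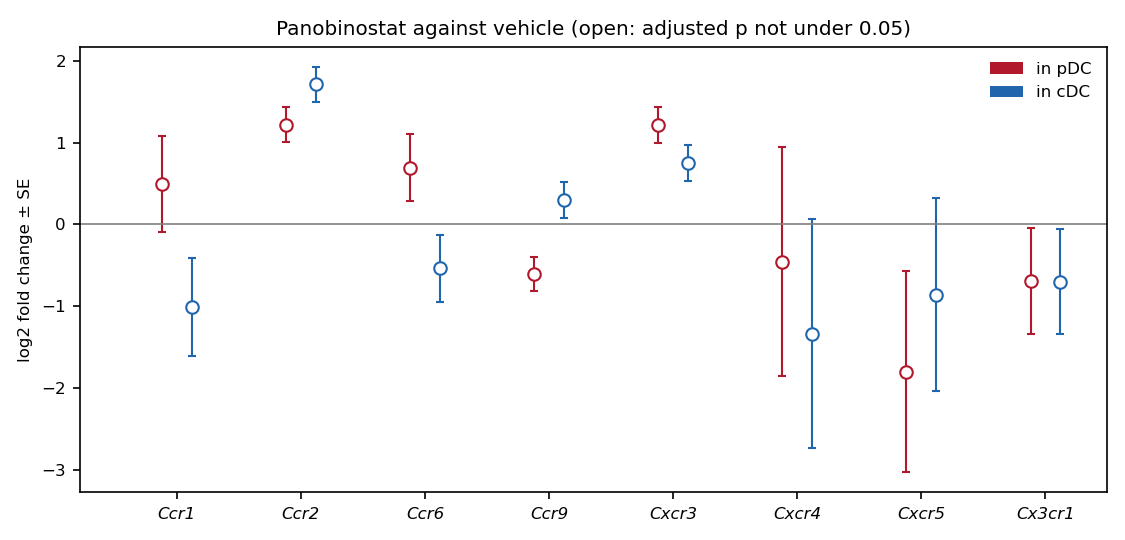
Log2 fold change of panobinostat against vehicle ± SE for each receptor, in pDC (red) and cDC (blue), all with open points because no adjusted p was below 0.05. Ccr2 and Cxcr3 lie above 0 in both cell types, and Ccr9 lies at -0.61 in pDC and 0.30 in cDC.

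The other 5 receptors in pDC had smaller or noisier values. Ccr6 was at 8.71 ± 0.367 CPM in panobinostat pDC and 5.42 ± 0.598 CPM in vehicle pDC (SD, n = 2 each), a log2 fold change of 0.69 ± 0.41 (adjusted p = 0.464). The log2 fold changes of Ccr1, Cx3cr1, Cxcr5 and Cxcr4 were 0.49 ± 0.59, -0.69 ± 0.65, -1.80 ± 1.23 and -0.46 ± 1.40, and the libraries of these 4 genes overlapped. The value of Ccr1 was -0.02 without vehicle pDC replicate 1, and that of Cxcr4 was 0.44 without panobinostat pDC replicate 2. In all, 3 receptors had every panobinostat library above every vehicle library in pDC, where 15.7% of all genes did, and 1 had every one below, where 26.5% of genes did.

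The third comparison was that of panobinostat and vehicle in cDC. None of the 8 receptors was called in cDC (0 of 8), and 0% of all genes were, with every adjusted p at 1.0. Unadjusted, Ccr2 and Cxcr3 had p below 0.05 (2 of 8, against 1.45% of all genes), and DESeq2 called 1, Ccr2 (adjusted p = 4.08e-06), with 0.105% of all genes, and limma-voom 0. Ccr2 was at 167 ± 34.4 CPM in panobinostat cDC and 50.9 ± 5.84 CPM in vehicle cDC (SD, n = 2 each), with a log2 fold change of 1.71 ± 0.21. Cxcr3 was at 86.6 ± 8.89 CPM in panobinostat cDC and 51.5 ± 11.3 CPM in vehicle cDC (SD, n = 2 each), with a log2 fold change of 0.75 ± 0.22. NK cell markers summed to 256 to 539 CPM in panobinostat cDC and 190.4 to 235 CPM in vehicle cDC, none of them at 0 in both libraries, with Ncr1 at 1.45 and 43.1 CPM in panobinostat cDC and 0.280 and 6.42 CPM in vehicle cDC, and their part in the Cxcr3 values was not tested. Monocyte and macrophage markers summed to 714 to 1002 CPM in panobinostat cDC and 712 to 957 CPM in vehicle cDC, with Csf1r at 177 and 87.0 CPM in panobinostat cDC and 204 and 143 CPM in vehicle cDC.

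Of the other cDC values, Ccr9 had a log2 fold change of 0.30 ± 0.22, and Ccr1, Ccr6, Cx3cr1, Cxcr5 and Cxcr4 had negative ones of -1.01 ± 0.60, -0.54 ± 0.41, -0.70 ± 0.64, -0.86 ± 1.18 and -1.34 ± 1.40. The libraries did not overlap for any of the 8, with 3 higher and 5 lower in panobinostat cDC, which was so for 22.2% and 18.8% of all genes. The median log2 fold change of the receptors was 0.01 in pDC and -0.62 in cDC, against -0.14 and 0.00 over all genes.

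The fourth comparison set the panobinostat effect in pDC against that in cDC by an interaction term. None of the receptors was called (0 of 8, against 0.00702% of all genes). Ccr9 had an unadjusted p below 0.05, as did 7.77% of all genes, with a difference of -0.90 ± 0.30 log2 units (adjusted p = 0.513). Ccr2 differed by -0.50 ± 0.29 (adjusted p = 0.781), Cxcr3 by 0.46 ± 0.31 (adjusted p = 0.806) and Ccr1 by 1.5 ± 0.84 (adjusted p = 0.759). For Ccr6 the difference was 1.23 ± 0.58 (edgeR adjusted p = 0.702), and DESeq2 called it (adjusted p = 0.0454) with 2.04% of all genes, while limma-voom called 0 receptors. Without panobinostat pDC replicate 1, edgeR called Ccr6 (adjusted p = 0.0224) and Cxcr4 (adjusted p = 0.0390) with 45.7% of all genes, and the difference of Cxcr4 was then -5.89, against 0.88 ± 1.97 in the fit of all libraries.

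The make-up of the receptor reads was also compared between libraries, a measure chosen after the values were seen. The 8 genes summed to 2070.4 and 2472 CPM in panobinostat pDC, 1883 and 1773 CPM in vehicle pDC, 309 and 357 CPM in panobinostat cDC and 209.6 and 216 CPM in vehicle cDC. Ccr9 made up 33.1% and 33.2% of this sum in panobinostat pDC and 63.4% and 61.9% in vehicle pDC. Ccr2 made up 40.2% and 39.3% in panobinostat pDC and 21.2% and 21.3% in vehicle pDC, and Cxcr3 made up 24.6% and 25.1% in panobinostat pDC and 13.7% and 12.9% in vehicle pDC. The shares of Ccr9, Ccr2 and Cxcr3 differed little between the replicates of a pDC group, panobinostat replicate 2 included. Some smaller shares differed more, with Ccr1 at 0.640% and 1.66% in vehicle pDC and Cx3cr1 at 0.330% and 0.718% in panobinostat pDC.

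**Figure D4:**
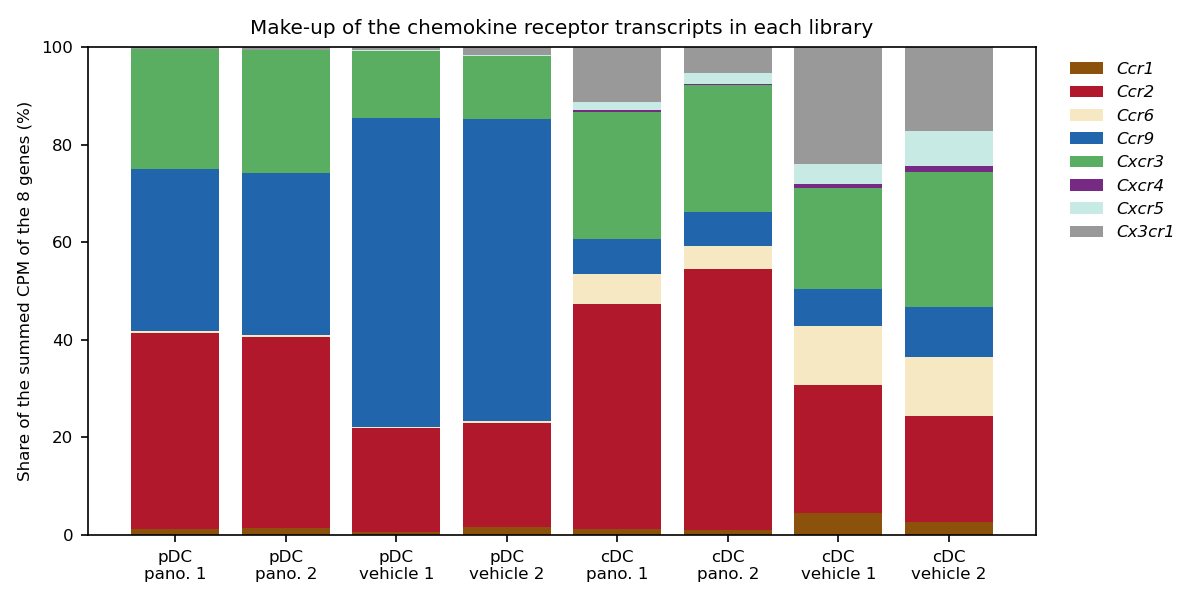
Share of the summed CPM of the 8 genes (%) held by each gene in each library, with panobinostat left of vehicle in each cell type. Ccr9 holds 33.1% and 33.2% in panobinostat pDC and 63.4% and 61.9% in vehicle pDC, and Ccr2 and Cxcr3 together hold most of the sum in panobinostat cDC.

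As a ratio of counts within a library, which does not depend on scaling, Ccr2 to Ccr9 was 1.21 and 1.18 in panobinostat pDC and 0.334 and 0.344 in vehicle pDC. The ratio was 3.54-fold higher in panobinostat pDC, and the log2 difference of 1.82 moved between 1.80 and 1.84 when any pDC library was left out. With 2 libraries a group, the smallest two-sided exact permutation p is 0.333, so that test cannot pass, and the ratio, chosen after its values were seen, was given no other test. Cxcr3 to Ccr2 was 0.611 and 0.638 in panobinostat pDC and 0.648 and 0.608 in vehicle pDC, with overlapping groups. In cDC, Ccr2 made up 46.1% and 53.6% of the sum with panobinostat and 26.3% and 21.7% with vehicle, and Cx3cr1 made up 11.2% and 5.36% with panobinostat and 24.0% and 17.3% with vehicle.

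The genes most alike to each receptor over the 8 libraries, by Pearson r of log2 CPM and given as a description, were Cyb561a3 (r = 0.9975) and Cdip1 for Ccr9, Gng12 (r = 0.9979) and Prss30 for Cxcr3, and Tmbim6 and Tespa1 (r = 0.9847 each) for Ccr2. For Ccr6 they were Oat (r = 0.994) and Aebp2, for Ccr1 Snrnp25 (r = 0.9852) and Hscb, for Cxcr5 Nagk (r = 0.9912) and Macir, for Cxcr4 Capns1 (r = 0.9886) and Rlf, and for Cx3cr1 Cep63 (r = 0.945) and Parg. Among the receptors, Ccr2 and Cxcr3 ran together (r = 0.97) and Ccr6 and Ccr9 ran opposite (r = -0.96). The 8 libraries fall into 2 cell types, which all these correlations share.

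Of 16 other chemokine receptors, 9 were tested, and 4 were lower in pDC under panobinostat and 3 under vehicle. Of all genes tested, 10.2% were called lower under panobinostat and 4.71% under vehicle. The lower ones were Ccr7, the lymph node homing receptor, Ccrl2, an atypical receptor, and Xcr1, the receptor of cDC1, under both treatments, and Cxcr6 under panobinostat, where its counts were 2 and 0 in panobinostat pDC and 50 and 65 in panobinostat cDC. Cxcr6 and the further genes named here beyond the 4 with the smallest p of a list, Ccl4, Ccl9, Gnb1, Rgs10 and Rgs1, were added after their values were seen. None of the 9 was called for panobinostat against vehicle in pDC or cDC, where 3 and 2 had an unadjusted p below 0.05. Over all genes, 14.9% in pDC and 1.45% in cDC had such a p.

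Of 16 ligands of these receptors, 13 were tested, and most of those called were lower in pDC. Under panobinostat 5 were lower (Cxcl9, Cx3cl1, Ccl6, Ccl2 and Ccl9) and Ccl4 was higher, and under vehicle 4 were lower (Ccl6, Ccl3, Cxcl9 and Ccl5). Of all genes tested, 10.2% were called lower and 7.76% higher under panobinostat, and 4.71% lower under vehicle. Cxcl9, a Cxcr3 ligand, was at 0.545 and 0.279 CPM in panobinostat pDC and 131 and 365 CPM in panobinostat cDC, and at 0.101 and 1.68 CPM in vehicle pDC and 44.6 and 126 CPM in vehicle cDC. Ccl2, the Ccr2 ligand, had 0 counts in all 4 pDC libraries, 64 and 144 counts in panobinostat cDC and 31 and 114 counts in vehicle cDC. Ccl25, the Ccr9 ligand, had 75 and 0 counts in panobinostat pDC and 53 and 53 in vehicle pDC. None of the 13 was called for panobinostat in either cell type, where 5 in pDC and 1 in cDC had an unadjusted p below 0.05. Over all genes, 14.9% in pDC and 1.45% in cDC had such a p.

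Of 14 signalling genes, 2 were higher and 3 lower in pDC under panobinostat, and 2 were higher and 1 lower under vehicle. For this list and the next, the shares over all genes were 7.76% higher and 10.2% lower under panobinostat. Under vehicle they were 5.01% and 4.71%. Rac2, the hematopoietic Rac GTPase, was at 2124 ± 351 CPM in panobinostat pDC and 549 ± 1.98 CPM in panobinostat cDC (SD, n = 2 each; log2 fold change 1.95 ± 0.21, adjusted p = 0.00373), and Gng2, a G protein gamma subunit, was the other higher gene under both treatments. Elmo1, which links receptors to Rac through Dock2, was lower in pDC under both treatments (log2 fold change -2.18 ± 0.22 under panobinostat, adjusted p = 0.00272), and Pik3cg and Gnb1 were lower under panobinostat. Of 14 genes of receptor desensitisation, 2 were higher (Rgs18 and Rgs10) and 4 lower (Grk3, Rgs2, Rgs3 and Rgs1) under panobinostat, and 1 was higher (Rgs18) and 3 lower (Grk3, Rgs2 and Rgs1) under vehicle. Grk3, a receptor kinase, was at 24.0 ± 6.42 CPM in panobinostat pDC and 196 ± 46.6 CPM in panobinostat cDC (SD, n = 2 each; log2 fold change -3.03 ± 0.33, adjusted p = 0.00361). No gene of either list was called for panobinostat against vehicle, where 3 signalling and 2 desensitisation genes in pDC and 0 and 1 in cDC had an unadjusted p below 0.05. Over all genes, 14.9% in pDC and 1.45% in cDC had such a p.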

How the data were processed

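Read counts per Entrez gene were deposited by the authors as a table of 8 libraries. Per the submitters' processing notes, the tools were cutadapt (2.1), HISAT2 (2.1.0) and featureCounts (Subread 2.0.0), and the build was mm10. Per the labels' protocols, libraries were made with a NEBNext low input kit. Whether counting used strand, and what became of multi-mapped reads, is not given in the sources used here, so Ccr6, Ccr9 and Cx3cr1 (each overlapped by a long non-coding gene) and Cxcr5 (overlapped by Bcl9l) are uncertain to that extent, as is Ccr2 for reads it may share with similar genes. The labels' extraction text speaks of leukemia cells and the titles of DC, and the titles were followed. Columns named D5W were taken as vehicle and LBH as panobinostat. Of the gene IDs, 25275 matched a symbol.

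Counts were tested in R (4.3.3) with edgeR (4.0.16): filterByExpr (minimum count 10, minimum total 15), TMM scaling, 1 coefficient per group over all 8 libraries (4 residual and 2.3 prior degrees of freedom), quasi-likelihood F tests and Benjamini-Hochberg adjustment over 14238 genes, tested on simulated data. The SE of a log2 fold change was derived from the F statistic, and log2 CPM had a prior count of 2. Alternatives were RLE scaling, library size only, no filter, a stricter filter, DESeq2 (1.42.0), limma-voom (3.58.1), a replicate block, the compared groups alone and each library left out. Same-numbered libraries deviated together in all 6 pairs of groups (r = 0.146 to 0.489). Equal numbers were treated as pairs only in the replicate block alternative, and the labels do not say which mice share a number. The fit reported had no block. No molecular identifiers are recorded, so floors cover counting error only. The receptors, lists and markers were chosen with earlier results of these data known. Genes were named by rule: the 8 receptors, the 2 genes most alike to each (mean log2 CPM of at least 3) and up to 4 called genes per list and comparison by p. Some genes of the lists are not reported here.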

Additional observations from a re-analysis of the deposited data

How the results depend on the processing

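Ccr9 and Cxcr3 were called for pDC against cDC under all 16 alternatives in each treatment, and Ccr2 under 15 of 16 with panobinostat and 16 of 16 with vehicle. Ccr1 with panobinostat was called under 11 of 16 and Ccr6 with vehicle under 9 of 16. The receptors called, out of 8, were 2 with DESeq2 and 0 to 4 when a library was left out for panobinostat in pDC, 1 with DESeq2 for panobinostat in cDC, 1 with DESeq2 and 0 to 2 when a library was left out for the interaction, and 2 in the compared groups alone and 3 to 7 when a library was left out for pDC against cDC with panobinostat. The highest of each range came without panobinostat pDC replicate 1. With vehicle the range was 3 to 5. For pDC against cDC, DESeq2 called 6 receptors with panobinostat and 4 with vehicle. The replicate block for the pairing changed no call of a receptor.

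Reversed signs were found in 14 values. With each library left out in turn, Cxcr4 ranged from -7.23 to 0.44 for panobinostat in pDC and from -7.03 to 0.63 for pDC against cDC with panobinostat, the lowest without panobinostat pDC replicate 1 and the highest without replicate 2. Ccr1 for panobinostat in pDC ranged from -0.02 without vehicle pDC replicate 1 to 1.25 without replicate 2. For the interaction, Cxcr4 was -0.83 with limma-voom and ranged from -5.89 to 1.79, and Cxcr5 ranged from -3.84 without panobinostat pDC replicate 1 to 0.40 without vehicle pDC replicate 2. The interaction of Cx3cr1, 0.02 as reported, was -0.08 with library size only, -0.01 with no filter, -0.18 with limma-voom, -0.01 with the replicate block, and between -0.85 and 0.69 when a library was left out (-0.85 without panobinostat pDC replicate 2, -0.45 without vehicle pDC replicate 1, -0.35 without panobinostat cDC replicate 2 and -0.21 without vehicle cDC replicate 1). The stricter filter removed Cxcr4. Where a library left out leaves 1 in its group, that library is taken to vary like the others. The cause of these changes was not tested.

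Over the whole table, genes called ranged from 0 to 8261 for panobinostat in pDC (13 as reported, 0 with the block), 0 to 15 in cDC (0), 0 to 6507 for the interaction (1, and 0 with the block), 162 to 9804 for pDC against cDC with panobinostat (2557) and 289 to 5523 with vehicle (1385).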
